A study of Mus musculus with 82 samples.

Results

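Platelet genes in mouse skin were followed as 9 genes, Pf4, Ppbp, Itga2b, Itgb3, Gp1bb, Gp9, Gp6, Treml1 and Clec1b, of 18690 genes that had both a probe and a mouse symbol. A gene was found through the accession of its probe, and where a gene had several probes it was represented by the probe that was brightest on average (mean log2 intensity, 82 arrays). Itgb3 was the only member with more than 1 probe. All 9 probes entered the tests, because a probe was tested when it was well above background on at least 50% of the arrays of any group.

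The arrays held RNA of dorsal skin biopsies of young adult male C57BL/6j mice that received whole-body X-rays from a linear accelerator, at 1, 3, 6 or 20 Gy, or the same handling under anaesthesia without radiation (sham). Biopsies were taken 2 h after exposure (h2) and after 4, 7, 21 and 28 days (d4, d7, d21 and d28), and the mice given 20 Gy were euthanised at d7. In order of time point there were 4, 4, 4, 2 and 2 sham arrays, 4, 4, 2, 4 and 4 at 1 Gy, 5, 5, 3, 4 and 3 at 3 Gy, 4, 4, 2, 3 and 4 at 6 Gy, and 4, 4 and 3 at 20 Gy. Every array set the biopsy (Cy5, red) against 1 common reference RNA (Cy3, green), with no dye swap, so each value below is a log2 ratio of skin to reference for 1 biopsy. The 82 biopsies came from 24 mice, each biopsied repeatedly, so that a later biopsy came from an animal with earlier wounds.

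Platelets are anucleate fragments shed by megakaryocytes of the bone marrow, and they carry leftover messenger RNA of those cells. Their alpha granules hold the chemokines encoded by Pf4 (platelet factor 4, CXCL4) and Ppbp (pro-platelet basic protein, CXCL7). Their surface holds the fibrinogen receptor made of the integrin chains encoded by Itga2b and Itgb3, the von Willebrand factor receptor of which Gp1bb and Gp9 encode subunits, the collagen receptor glycoprotein VI (Gp6), the podoplanin receptor CLEC-2 (Clec1b) and the granule membrane protein TLT-1 (Treml1). Skin contains platelets only through its blood, and some members are known from other cells as well, such as Pf4 in tissue macrophages and Itgb3 in vessel wall cells.

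Both chemokine genes lie next to each other on chromosome 5 (RefSeq, build GRCm38.p6), Ppbp at chr5:90768518-90770063 and Pf4 at chr5:90772435-90773383, with 2371 bases between them. The other members lie apart, Itga2b at chr11:102453297-102469883, Itgb3 at chr11:104608000-104670476, Gp1bb at chr16:18620319-18622403, Gp9 at chr6:87776131-87779786, Gp6 at chr7:4362853-4397851, Treml1 at chr17:48359916-48367176 and Clec1b at chr6:129397297-129405413. The 300 bases around the starts of Pf4, Ppbp and Itga2b follow, 5′ to 3′ on the strand of the gene, because the 2 chemokine genes are neighbours that could be measured on very different numbers of arrays and Itga2b is the classical megakaryocyte gene. Capitals mark a GATA motif (AGATAA, or TTATCT on the other strand) or an ETS motif (AGGAAG, or CTTCCT on the other strand), letters bound by megakaryocyte factors of those families. The Pf4 window is chr5:90772185-90772484 (plus strand), the Ppbp window chr5:90768268-90768567 (plus strand) and the Itga2b window chr11:102469834-102470133 (minus strand).
Pf4: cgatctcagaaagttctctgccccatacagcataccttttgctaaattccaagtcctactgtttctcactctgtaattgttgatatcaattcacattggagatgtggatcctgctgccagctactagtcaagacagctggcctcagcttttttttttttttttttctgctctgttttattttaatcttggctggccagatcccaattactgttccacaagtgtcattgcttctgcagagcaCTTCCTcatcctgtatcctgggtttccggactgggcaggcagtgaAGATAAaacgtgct
Ppbp: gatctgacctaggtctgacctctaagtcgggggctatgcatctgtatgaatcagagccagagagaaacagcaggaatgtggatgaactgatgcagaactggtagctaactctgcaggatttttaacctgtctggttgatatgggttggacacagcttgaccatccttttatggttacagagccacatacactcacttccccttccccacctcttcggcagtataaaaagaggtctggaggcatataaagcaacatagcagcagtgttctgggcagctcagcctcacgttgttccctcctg
Itga2b: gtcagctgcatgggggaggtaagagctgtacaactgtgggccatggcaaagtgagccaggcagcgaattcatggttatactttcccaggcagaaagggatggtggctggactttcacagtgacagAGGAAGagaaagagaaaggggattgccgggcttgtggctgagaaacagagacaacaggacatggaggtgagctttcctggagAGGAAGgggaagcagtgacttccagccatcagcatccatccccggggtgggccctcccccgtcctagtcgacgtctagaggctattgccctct
The Pf4 window held both motifs, the Itga2b window held the ETS letters at 2 places, and the Ppbp window held neither. Of 8 members with a window, 3 held the GATA letters (Pf4, Gp6 and Clec1b) and 4 the ETS letters (Pf4, Itga2b, Gp1bb and Gp9), where of all 32851 windows of that length 11.2% held the GATA letters, 35.4% the ETS letters and 4.05% both. Itgb3 had no window in the table used here.

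How much of this could be measured in skin differed from gene to gene. In the biopsy channel Pf4 and Itgb3 exceeded background clearly, by the criterion of the scanner software, on 82 of 82 arrays, Gp6 on 72 (87.8%), Gp1bb on 65 (79.3%) and Treml1 on 58 (70.7%). Itga2b was above background on 39 (47.6%), Ppbp on 22 (26.8%), Clec1b on 8 (9.76%) and Gp9 on 3 (3.66%). Thus 4 of the 9 genes were under the limit of measurement in most biopsies, and a missing signal there sets only an upper bound. By brightness Pf4 stood at the 96th percentile of the tested probes, Itgb3 at 72.4, Treml1 at 43.9 and Clec1b at 6.98, although brightness also depends on the probe and sets no order of the transcripts.

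At 20 Gy, Ppbp was above background on 0 of 11 arrays, Gp9 and Clec1b on 0, Itga2b on 1 and Gp1bb on 5, against 2, 1, 3, 8 and 11 of the 16 sham arrays. Gp6 was measured on 9 and Treml1 on 7 of the 11 arrays at 20 Gy, and on 13 and 10 of the sham arrays. The 20 Gy arrays were all read on scanner 1, where sham gave 8 arrays, and within those 8 arrays Ppbp and Clec1b were above background on 0, Itga2b on 4, Gp1bb on 7, Gp6 on 6 and Treml1 on 6. The share of all probes above background was lower at 20 Gy as well (median 43.4%, against 56.4% in sham), and its part in these counts was not tested.

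**Figure D1:**
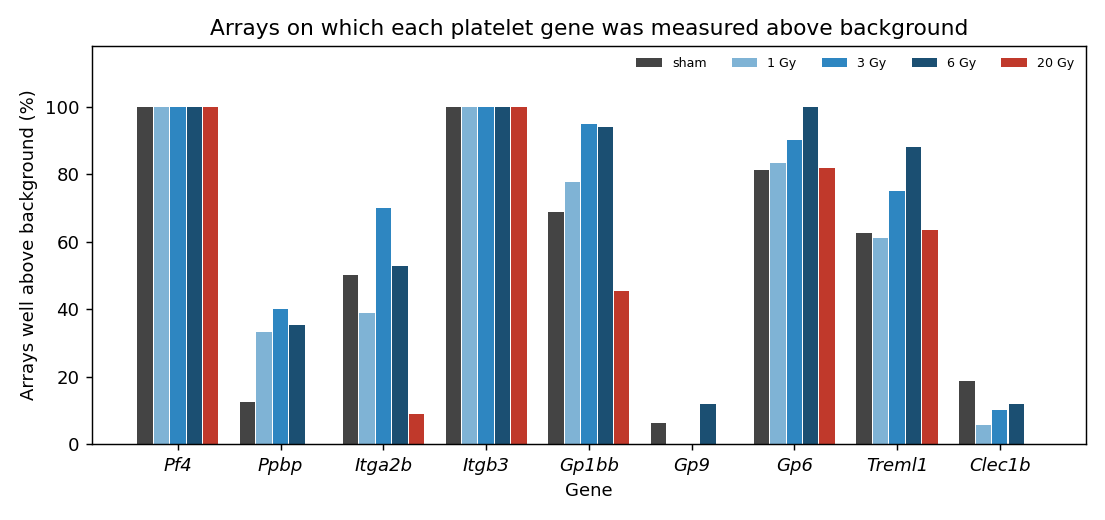
The bars give, for each platelet gene (horizontal axis) and dose (colour), the percentage of arrays on which the Cy5 signal of the probe stood well above background (vertical axis). Pf4 and Itgb3 reach 100% at every dose, while Ppbp, Gp9 and Clec1b have no bar at 20 Gy.

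The arrays were read on 2 scanners, with scanner 1 holding 25 arrays (all 11 at 20 Gy, 8 of sham and 2 each at 1, 3 and 6 Gy) and scanner 2 holding 57, so that dose and scanner are partly confounded. The 4 arrays of 20 Gy at h2 shared 1 slide, and so did the 4 at d4, hence slide and dose cannot be told apart there. On scanner 1 the median Cy5 signal of an array was 29.5 to 33 at 20 Gy and 48 to 64 in sham at h2, 29 to 31.5 and 54 to 63.5 at d4, and 22 to 26.5 and 23 to 23.5 at d7. All 8 epidermis markers and all 8 dermal fibroblast markers checked were well above background on every array. No 2 arrays held the same values. In a bulk biopsy, fewer cells of a type and less RNA per cell cannot be told apart.

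Under loess Pf4 was lower in skin at d7 after 20 Gy than in sham skin of that day, with a size that depended on the sham arrays used. It was the only platelet gene whose change against sham was called, that is, passed an adjusted p of 0.05 with at least a 2-fold change. At d7 the 4 sham arrays gave log2 ratios of -1.69, -0.97, -0.26 and 2.15, and the 3 arrays at 20 Gy gave -2.35, -2.15 and -1.83. All 3 irradiated values lay below all 4 sham values, and the sham values themselves spread over nearly 4 log2 units (mean -0.19 ± 1.67, SD, n = 4) against a narrow 20 Gy group (-2.11 ± 0.26, SD, n = 3). The difference was -1.92 (SE 0.57, 95% interval -3.07 to -0.78, adjusted p = 0.0464, limma with Benjamini-Hochberg adjustment over 30294 probes). In this comparison 555 of the 30294 probes tested, 1.83%, were called in either direction, and 1 of the 9 platelet genes was.

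The Cy5 signals behind those ratios were 44, 53 and 116 at 20 Gy and 134.5, 245, 792 and 10223.5 in sham skin, with the highest sham signal from mouse M003 and the 2 lowest from the sham arrays on scanner 1. Those 2 sham arrays and all 3 arrays of 20 Gy were read on the same scan day, and the other 2 sham arrays on scanner 2 on another day. On scanner 1 alone, where the sham values were -1.69 and -0.97, the groups still did not overlap. The difference there was -0.78 (adjusted p = 0.122, not called). The larger difference over all sham arrays thus rests in part on arrays of another scanner and scan day. Without the d7 array of sham mouse M003 it was -1.14 (adjusted p = 0.382). The call was also lost without sham mouse M002 (adjusted p = 0.0558) and without any of the irradiated mice M022, M023 and M024 (adjusted p = 0.161, 0.218 and 0.124), with a value below 0 each time. It was lost again with slide as a block (-1.86, adjusted p = 0.057), with scan day as a block (-0.78, adjusted p = 1) and when all probes were tested (adjusted p = 0.0634). With mouse as a block the difference was -1.95 (adjusted p = 0.0436), and against all 16 sham arrays, less those with an outlier spot, it was -2.29 (adjusted p = 0.00133).

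At h2 and d4 the picture for Pf4 depended on the scaling. Under loess, the sham arrays at h2 gave -1.59, 0.54, 0.59 and 0.92 and the 20 Gy arrays 0.18, 0.78, 0.81 and 0.83, so that the groups overlapped. The difference was 0.54 (SE 0.53, 95% interval -0.52 to 1.60, adjusted p = 0.492), yet it was -2.43 (adjusted p = 0.0435, called) when each array was centred on its median, and -0.84 (adjusted p = 0.0343, below 2-fold) in the deposited normalized values. Without the low sham array at h2, from mouse M002, the loess difference was -0.03 (adjusted p = 0.977).

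At d4 the values were -0.31, -0.11 and 0.24 in the 3 sham arrays used and 0.28, 0.86, 1.02 and 1.26 at 20 Gy, with no overlap but with a difference of 0.91 (SE 0.57, adjusted p = 0.225) that turned to -1.52 (adjusted p = 0.284) under median centring and to -0.33 (adjusted p = 0.463) in the deposited values.

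The raw signals show what the scalings start from. Pf4 gave Cy5 signals of 222 to 534 on the 20 Gy arrays at h2 against 1569 to 4705.5 in sham, while the reference channel gave 3108.5 to 4043 on the same 20 Gy arrays. At d4 the Cy5 signals were 343.5 to 813.5 against 1789 to 4149. Bright probes as a whole were shifted the same way, since among the brightest 10% of tested probes (3030 probes, which include Pf4) the median change at h2 was -2.96 under median centring, -0.08 under loess and -0.02 in the deposited values. At d4 these medians were -2.09, -0.09 and -0.04. Pf4 lay above the median of the bright probes at h2 and d4 under loess and under median centring and below it in the deposited values, so no direction is given for those time points. At d7 the same medians were -0.37, 0.00 and -0.05, and Pf4 was lower under every scaling, by -2.28 after median centring (adjusted p = 0.889, overlapping groups), -1.24 in the deposited values (adjusted p = 0.00349) and -2.10 in the ratios of the scanner software (adjusted p = 0.00889).

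**Figure D2:**
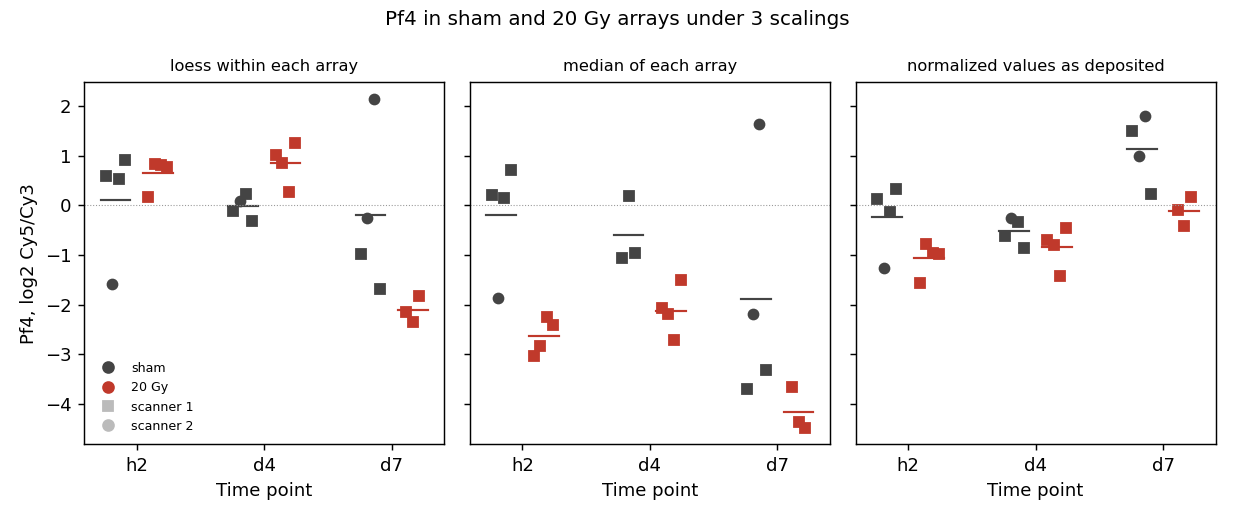
Each point is the Pf4 log2 Cy5/Cy3 ratio (vertical axis) of 1 array of sham (grey) or 20 Gy (red) at h2, d4 and d7, under loess, median centring and the deposited normalization, and the bar is the group mean. The order of the groups at h2 and d4 changes with the scaling, whereas at d7 the 20 Gy points lie below all sham points under loess and in the deposited values and overlap them under median centring, and 1 sham d4 array with an outlier spot is missing from the middle panel.

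The change of the Pf4 difference from h2 to d7 was tested directly. Under loess the 20 Gy effect at d7 minus that at h2 was -2.46 (SE 0.78, adjusted p = 0.0459, called), where 5.59% of the probes tested (1692 of 30294) were called. This too rested on the scaling, being 0.16 under median centring, -0.40 in the deposited values (adjusted p = 1) and -0.75 on scanner 1 alone (adjusted p = 0.117). Sham mouse M002 enters it at both times, and without that mouse it was -1.92 (adjusted p = 0.14). Over the 9 sham and 20 Gy mice left out in turn it ran from -3.23 to -1.68, and the call held for 2 of them (M001 and M005).

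Pf4 at the lower doses was measured with fewer usable spots. The scanner software had marked its spot as an outlier on 29 of 82 arrays, all on scanner 2 (3 of sham, 10 at 1 Gy, 10 at 3 Gy and 6 at 6 Gy), and those values were left out of the model, which leaves no sham value and hence no comparison at d21. With the marked spots kept, group means ran from -0.56 at 1 Gy on d7 to 1.42 in sham on d21 and d28, and the 20 Gy mean of -2.11 at d7 lay below all of them. The 4 arrays of 6 Gy at d4 gave 0.37, 0.93, 1.22 and 1.40 (the last from a marked spot), above every sham value of that day. The fitted difference was 0.90 (adjusted p = 0.435) under loess and 1.39 (adjusted p = 0.0039, called) in the deposited values. At 3 Gy on d28 the only unmarked array gave -1.62 and the marked ones 1.40 and 1.45, so the fitted difference of -3.04 (SE 0.92, adjusted p = 0.307) rests on 1 array and was -1.01 with all spots.

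Pf4 also varied within sham skin. The late sham arrays were high, with 1.39 and 1.44 at d21 (both from marked spots) and 1.31 and 1.53 at d28, above every sham value of h2 and d4. The d28 difference from h2 was 1.31 (adjusted p = 0.227) under loess and 1.79 (adjusted p = 0.000212, called) in the deposited values. At d7 the sham difference from h2 took opposite signs, -0.30 under loess and 1.37 in the deposited values (adjusted p = 0.00125, called). On scanner 1 alone that difference was -2.01 (adjusted p = 3.78e-05, called), from 2 sham arrays at d7 and 3 at h2. These d7 and h2 arrays differ in scan day and slide, so time, scan day and slide cannot be told apart there. All sham arrays of d21 and d28 were read on scanner 2, against 3 of 4 on scanner 1 at h2 and at d4. Time and scanner are thus partly confounded in sham. The plot of Pf4 by array shows this spread beside the 20 Gy groups.

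**Figure D3:**
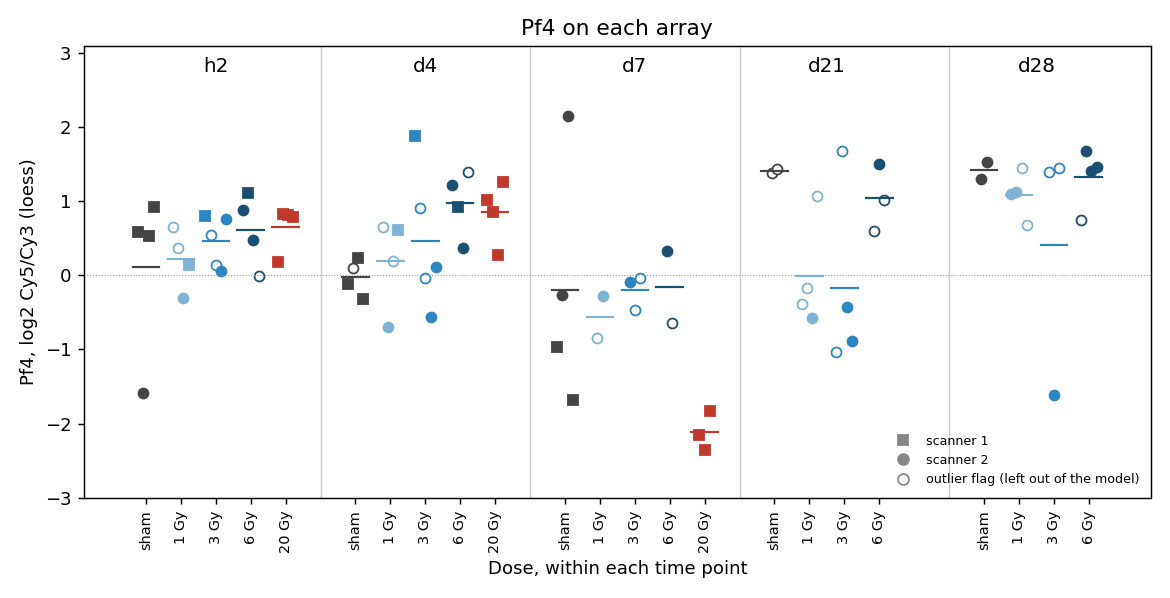
Each point is the Pf4 log2 Cy5/Cy3 ratio after loess (vertical axis) of 1 array, grouped by dose within each time point (horizontal axis), with squares for scanner 1, circles for scanner 2, open circles for outlier spots left out of the model, and bars for the mean of all points shown. The 3 points of 20 Gy at d7 lie between -2.35 and -1.83, below every other array, and the sham points of d7 spread from -1.69 to 2.15.

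Monocyte and macrophage markers, which would share a source with Pf4 in tissue macrophages, were measured on the same arrays. Of 11 markers tested, 9 to 11 were well above background on each sham and 20 Gy array. Their mean log2 ratio per array was 0.42 to 2.84 in sham at d7 and 0.60 to 0.88 at 20 Gy, with the groups overlapping, and 0 of 11 were called while 9 had a value below 0 (median -1.02, against 0.02 over all probes tested). At d4 the means were 1.84 to 2.85 in sham and 0.59 to 1.36 at 20 Gy, without overlap, and 4 of the 11 were called lower, where 5.11% of all probes (1548 of 30294) were. These were Folr2, C1qb, C1qa and Csf1r, with -2.83, -2.60, -2.41 and -1.13 under loess and -1.02, -0.39, -0.42 and -0.93 in the deposited values. At h2 only C1qb of the 11 was called (-2.38, adjusted p = 0.0494, and -0.89 in the deposited values), where 3.33% of all probes were called lower. The part of macrophages in the Pf4 values was not tested.

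Other cell markers moved at d7 as well. Of 8 dermal fibroblast markers 5 were called lower (Col3a1 -5.42, Col1a1 -4.71, Lum -4.38, Col1a2 -3.95 and Sparc -3.26), where 0.624% of all probes (189 of 30294) were, and their mean log2 ratio per array was 2.31 to 3.60 in sham and 0.28 to 0.50 at 20 Gy. Of 8 epidermis markers Krt1 (-3.82, adjusted p = 0.0101) and Krt14 (-1.12) were called lower, with means of 3.30 to 5.64 and 3.22 to 3.47. Of 5 red blood cell markers 0 were called and all 5 had values below 0, among them Hba-a1 (-2.21, adjusted p = 0.074) and Hbb-bt (-2.29, adjusted p = 0.414), with means of 0.92 to 3.00 in sham and 0.76 to 1.05 at 20 Gy. Their part in the Pf4 values was not tested.

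At d4 blood and vessel markers were lower after 20 Gy as well. Of the 5 red blood cell markers 2 were called lower, Hbb-bt (-2.69, adjusted p = 0.0481) and Hba-a1 (-1.96, adjusted p = 0.0341), with -2.60 and -2.10 in the deposited values, and the list means were 2.11 to 2.53 in sham and 1.03 to 1.24 at 20 Gy. Of 8 endothelium markers 6 were called lower (Cdh5, Cldn5, Emcn, Kdr, Tie1 and Tek, -3.21 to -1.49 under loess and -0.83 to -0.06 in the deposited values), with list means of 2.27 to 3.42 and 0.48 to 0.81. Over all probes 5.11% were called lower at d4 and 3.33% at h2. At 3 Gy on d4, against the same sham arrays, these 2 red blood cell and 6 endothelium markers were called lower too. Hbb-bt gave -4.69 and Hba-a1 -3.66 (-0.92 and -0.46 in the deposited values). The endothelium markers gave -2.84 to -1.20 (-1.09 to -0.49 in the deposited values), beside 3.34% of all probes called lower. The calls at 3 Gy rest on the fit, as given below. At h2, 2 of the 8 endothelium markers were called lower, Cldn5 (-2.69, and 0.26 in the deposited values) and Cdh5 (-2.18, and -0.40). 

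Skin cell markers were called at h2 and d4 in both directions, and the sign of several turned with the scaling. Of the 8 epidermis markers 2 were called higher at h2 and 3 at d4, and 2 were called lower at each time, beside 5.79% of all probes higher at h2 and 6.09% at d4. All the higher ones had the other sign in the deposited values, as for Krt5 (2.90 and -1.60 at h2, 3.08 and -1.40 at d4), while Dsg1a and Trp63 were lower in both. Of the 8 dermal fibroblast markers Col1a2 was called higher at h2 (2.12, and -4.47 in the deposited values) and Fbln1 lower at h2 and d4. Among mast cell markers 1 of 7 was called lower at h2 (Kit) and 3 at d4 (Kit, Cpa3 and Tpsb2), and among T cell markers 1 of 6 at d4 (Cd3d). The part of all these markers in the platelet gene values was not tested.

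Ppbp, the chemokine gene next to Pf4, had a signal near background in sham skin as well. At d7 it was above background on 1 of 4 sham arrays and 0 of 3 at 20 Gy, its log2 ratios were -0.09, -0.05, 0.09 and 0.18 in sham and -0.15, -0.09 and -0.04 at 20 Gy, and the groups overlapped. No fold was formed against a group at background. At h2 and d4 it was at background on all sham and all 20 Gy arrays. Below 20 Gy it was above background on at most 3 arrays of any group. A fall of Ppbp of the size fitted for Pf4 could not have been seen at this signal.

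The integrin chain genes differed in how well they could be read. Itga2b, which marks megakaryocytes and platelets, was above background on 1 of 4 sham arrays at h2, 4 of 4 at d4 and 2 of 4 at d7, and on 1, 0 and 0 arrays at 20 Gy. Its log2 ratios at d4 were -0.64, -0.50, -0.47 and -0.06 in sham and -0.28, -0.16, -0.14 and -0.11 at 20 Gy. Those groups overlapped, and as the 20 Gy signals were under the background limit no fold was formed there. At d7 no fold was formed either, for the same reason.

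Itgb3, whose chain also pairs with another alpha integrin outside platelets, was above background throughout. At h2 its ratios were -1.14, 0.21, 0.36 and 0.42 in sham and 0.07, 0.17, 0.28 and 0.34 at 20 Gy, which overlapped. The difference was 0.25 (SE 0.25, adjusted p = 0.509) under loess and -1.53 (adjusted p = 0.0188, called) under median centring, and the Cy5 signals were 158.5 to 483 in sham and 48 to 65 at 20 Gy. The low sham array was from mouse M002, which was low for Pf4 at h2 too and the only sham array on scanner 2 there. At d4 the difference was -0.04 under loess, -1.40 (adjusted p = 0.0429, called) under median centring and 0.40 (adjusted p = 0.0638) in the deposited values, so no direction is given, and at d7 it was 0.03 (95% interval -0.52 to 0.58, adjusted p = 0.995). A dimmer probe of Itgb3 gave 0.44, -0.42 and 0.78 at h2, d4 and d7, none of them called.

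Treml1, the gene of an alpha granule membrane protein of platelets, was less far below the reference after 20 Gy than in sham at h2 and d4, by less than 2-fold. At h2 the sham ratios were -1.21, -1.09, -0.57 and -0.34 and the 20 Gy ratios -0.16, -0.13, -0.06 and -0.05. All 20 Gy values lay above all sham values, but only 1 of 4 arrays in each group was well above background. The difference was 0.70 (SE 0.19, adjusted p = 0.00568). At d4 the sham ratios were -1.16, -1.01, -0.79 and -0.44 and the 20 Gy ratios -0.22, -0.19, -0.05 and 0.02, again without overlap, with 4 of 4 and 3 of 4 arrays above background and a difference of 0.74 (SE 0.19, adjusted p = 0.00287).

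The size of the Treml1 difference moved with the processing while its direction held. At h2 it was 0.07 (adjusted p = 0.831) under median centring, 0.33 (adjusted p = 0.00557) in the deposited values and 2.13 (called) in the scanner software ratios, and with slide as a block its adjusted p was 0.0636. At d4 it was 0.14 under median centring and 0.29 in the deposited values, and the software ratios called it again. The raw Cy5 signals did not rise, being 28 to 33 at 20 Gy and 30 to 77.5 in sham at h2. At d7 the ratios were -0.37, -0.36, 0.04 and 0.15 in sham and 0.17, 0.27 and 0.29 at 20 Gy, again without overlap (difference 0.38, SE 0.21, adjusted p = 0.49), and the software ratios gave 1.32 (adjusted p = 0.0291, called). Sham skin showed a change of similar size, as Treml1 at d7 lay 0.67 above h2 under loess, not called. That sham change was called without background correction (1.11, adjusted p = 0.000545) and in the software ratios (2.46, adjusted p = 0.000722).

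Gp1bb, a subunit gene of the von Willebrand factor receptor, was lower at d4 after 20 Gy under loess. The sham ratios were -0.03, 0.52, 0.64 and 1.28 and the 20 Gy ratios -0.11, -0.09, -0.06 and -0.05. None of the 4 arrays at 20 Gy was above background, all 4 sham arrays were, and the groups did not overlap. Sham was at least 1.49-fold higher, a bound set against the higher of the dim signal and the lowest signal measured above background on each 20 Gy array. This bound used signals scaled between arrays and carries no sampling error. The fitted difference was -0.68 (SE 0.20, adjusted p = 0.00704, below the 2-fold limit). The difference was 0.07 (adjusted p = 0.803) in the deposited values, which have another sign, and -0.46 (adjusted p = 0.0928) without sham mouse M001, while on scanner 1 alone it was -0.89 (adjusted p = 5.19e-05).

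At h2 and d7 Gp1bb was -0.24 (adjusted p = 0.389) and -0.06 (adjusted p = 0.985) relative to sham, with overlapping groups. On d28 it was above background on 0 of 2 sham arrays and on 4 of 4, 3 of 3 and 3 of 4 arrays at 1, 3 and 6 Gy. The bounds on the group means put the irradiated groups at least 1.18-, 1.48- and 1.40-fold higher, with none of these 3 comparisons called. Those bounds rest on 2 sham arrays and 1 scaling and carry no sampling error, and the 6 Gy ratios ran from 0.03 to 1.37. Its partner subunit gene Gp9 was at background on all sham and 20 Gy arrays at h2 and d4, and on d7 on all but 1 sham array.

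Gp6, the collagen receptor gene, was not called under loess. Its differences at 20 Gy were 0.15 (95% interval -0.13 to 0.43, adjusted p = 0.472) at h2, 0.13 (-0.15 to 0.42, adjusted p = 0.49) at d4 and 0.06 (-0.24 to 0.37, adjusted p = 0.966) at d7, but the software ratios gave 1.53 at h2 (adjusted p = 0.0126, called). At d7 all 4 sham arrays (0.04, 0.08, 0.15 and 0.55) and all 3 at 20 Gy (0.10, 0.32 and 0.39) were above background, and their ranges overlapped. Clec1b, whose product is the other platelet receptor that signals through Syk, was at background on all 20 Gy arrays, where no fold was formed.

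**Figure D4:**
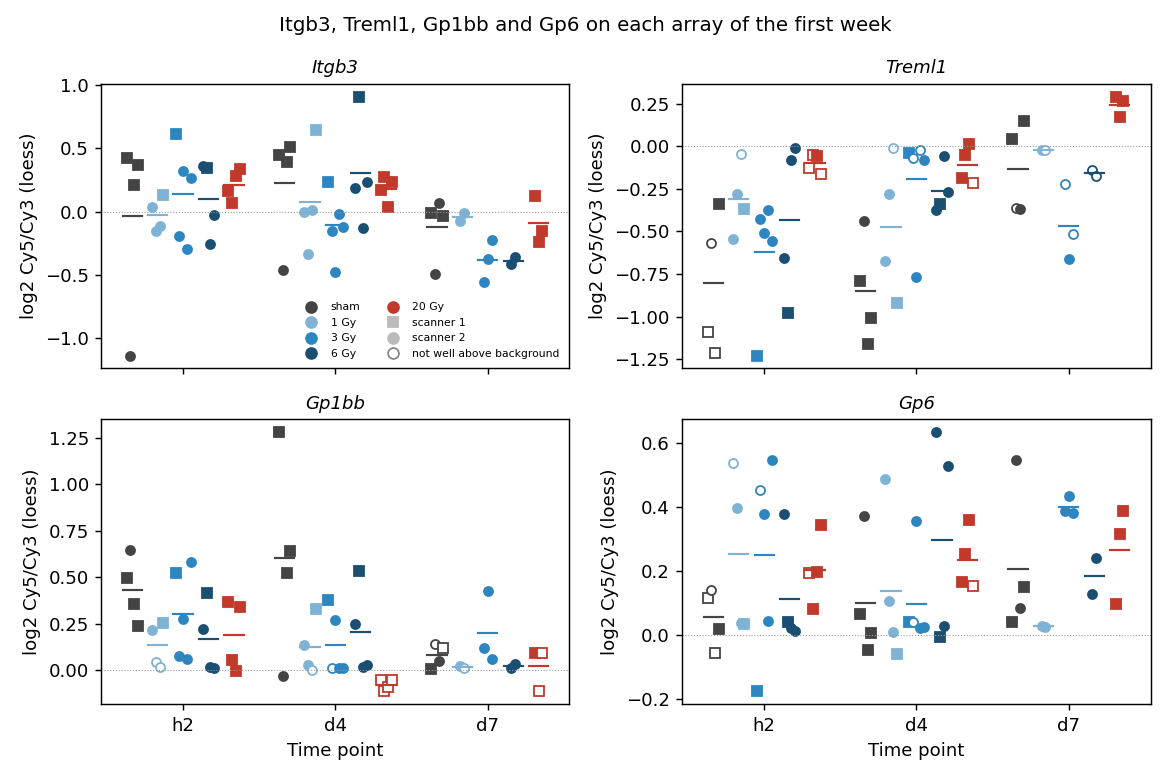
Each point is the log2 Cy5/Cy3 ratio after loess (vertical axes) of Itgb3, Treml1, Gp1bb or Gp6 on 1 array, by dose within h2, d4 and d7 (horizontal axis), with squares for scanner 1, circles for scanner 2, open symbols for arrays not well above background and bars for group means. Treml1 at 20 Gy lies above sham at each time point, and the 4 Gp1bb points of 20 Gy at d4 are open and lie near 0.

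Counted over the list, 0 of 9 genes were called at 20 Gy at h2 and 0 of 9 at d4, where 9.12% (2762 of 30294) and 11.2% (3392 of 30294) of all probes tested were called. Without the 2-fold limit 1 gene (Treml1) passed at h2 and 2 (Treml1 and Gp1bb) at d4, against 23.8% and 32.3% of all probes. The median difference of the 9 genes was 0.13 at h2 and 0.13 at d4, beside medians over all probes of 0 and -0.02, and it was -0.03 at d7 beside 0.02. Setting 20 Gy against 6 Gy called 0 of the 9 genes at h2, d4 or d7, where 4.77% of the probes over the 3 comparisons (4334 of 90881) were called. There Pf4 gave -0.17, 0.01 and -2.44 (adjusted p = 0.0953 at d7, with 1 unmarked array at 6 Gy), and in the deposited values -1.18, -1.72 and -1.10, all 3 called.

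**Figure D5:**
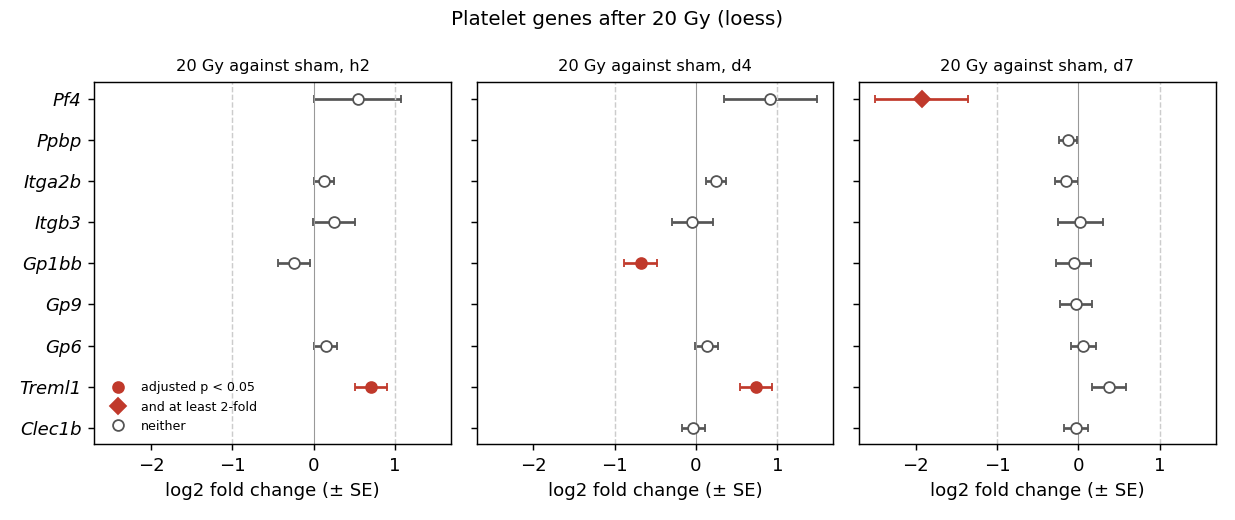
Points give the log2 fold change of each platelet gene (vertical axis) at 20 Gy against sham under loess (horizontal axis, bars 1 SE) at h2, d4 and d7, with dashed lines at 2-fold, and genes not well above background on any array of either group are left blank. Pf4 at d7 is the only point beyond the dashed lines with an adjusted p under 0.05, and the Pf4 and Itgb3 points at h2 and d4 lie below 0 when arrays are centred on their median.

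At the sublethal doses the share of platelet gene values that passed a threshold was near that of all probes, which is no result about these genes. Over the 15 comparisons of 1, 3 and 6 Gy with sham, which share the sham arrays within each time point, there were 132 gene values, of which 83 were above 0, 0 were called and 14 had an unadjusted p under 0.05. Over all probes 0.358% (1622 of 453311) were called and 9.89% had an unadjusted p under 0.05. Apart from Pf4 no value exceeded 0.88 in size. Pf4 was called at 6 Gy on d4 in the deposited values, as given above, and with scan day as a block (1.60, adjusted p = 0.0312), at 3 Gy on d28 with scan day as a block (-3.04, adjusted p = 0.0137) and, with 1 array at 3 Gy assumed to vary like the other groups, at 3 Gy on d4 on scanner 1 alone (1.94, adjusted p = 0.000576). At 3 Gy on d4, where 5.26% of probes (1594 of 30294) were called, 0 of 9 genes were called, and 3 passed the adjusted p alone, against 17.2% of all probes. The calls of this comparison rest on the fit. With median centring or in the software ratios 0 probes were called, 3 without background correction, 3 when scanner was blocked and 2 when scan day was. Against all sham arrays 5 were called, and in the deposited values 108. The calls stayed with slide (1434) or mouse (1596) as a block, all probes tested (1434) and outlier spots kept (1575).

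Those 3 were Itga2b (0.40, adjusted p = 0.0216), Treml1 (0.66, adjusted p = 0.0185) and Gp9, which was at background on all 9 arrays concerned. Itga2b gave -0.07, -0.03, -0.0025, 0.01 and 0.03 at 3 Gy, all above the sham values given before except that -0.07 lay just below the highest sham array at -0.06. Treml1 gave -0.77, -0.08, -0.07, -0.04 and -0.02, overlapping sham. On scanner 2 alone, with 1 sham array, the differences were 0.06 for Itga2b and 0.21 for Treml1 (adjusted p = 0.984 and 0.932), and in the deposited values 0.06 and 0.13. None of the 3 genes passed with median centring, without background correction, with scanner or scan day as a block, or against all sham arrays. In the other platelet lists P2ry1 (-2.37), Esam (-1.70) and Vwf (-2.38) were called lower at 3 Gy on d4, with -0.23, -0.38 and -0.50 in the deposited values. Vav1 (1.11), Lat (1.45) and Cxcl1 (1.91) were called higher, with -0.07, 0.39 and 0.48 there. Over all probes 3.34% were called lower and 1.92% higher.

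In sham skin over time 0 of 9 genes were called in 4 comparisons with h2, where 0.762% of probes (921 of 120871) were called. The effects of 1, 3 and 6 Gy at the late time points minus those of the first week called none of the 8 genes with values, beside 0.0111% of probes (10 of 89886).

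Other genes of platelets were counted by list. Of 18 further surface receptor genes 13 were tested at 20 Gy on d7, and Cd9, a tetraspanin of platelets that many other cells carry, was called lower (-1.12, SE 0.29, adjusted p = 0.0103, and -0.95 in the deposited values), where 0.624% of all probes were. The median of those 13 was -0.11, beside 0.02 over all probes. Of 20 granule and cytosolic genes 15 were tested and 0 called (median -0.38, 11 below 0), of 12 signalling genes below GP6 and CLEC-2 0 were called (median 0.01), and of 8 megakaryocyte transcription factor genes 0 were called (median -0.03). For the change of the 20 Gy effect from h2 to d7, Cavin2, a caveolar coat gene abundant in vessels and platelets, gave -2.62 (SE 0.65, adjusted p = 0.00537) and Nrgn, a calmodulin-binding protein gene, gave -1.06 (SE 0.35, adjusted p = 0.0481). These were 2 of the 15 genes of their list, beside 5.59% of all probes, and their values from the deposited table were -0.44 and -0.14. Earlier after 20 Gy, 5.79% of all probes (1754 of 30294) were called higher at h2, and 3.33% (1008) were called lower. At d4 these shares were 6.09% (1844) for a rise, and again 5.11% for a fall. Beside this, 1 of 13 surface receptor genes was called lower at h2 (P2ry1) and 2 at d4 (P2ry1 and Esam), and of 15 granule and cytosolic genes 2 were called higher (Plek and Cavin2) and 3 lower (Rab27b, Alox12 and Clu) at h2 and 3 lower at d4 (Rab27b, Alox12 and Tbxas1). Of 2 CXC chemokine genes tested that neighbour Pf4, Cxcl1 was called higher at h2 (1.72) and d4 (2.07), with 0.91 and 1.05 in the deposited values. Cxcl1 was well above background on only 29 of 82 arrays, so the size of these values is uncertain. Of the 12 signalling genes 3 were called higher at h2 (Vav1 1.04, Lat 1.65 and Tln1) and 1 lower (Vav3 -1.29), and at d4 Lat was called higher and Vav3 and Lyn lower. Leaving out Cxcl1, of these 10 calls at h2 and 8 at d4, 9 and 8 had the same sign in the deposited values, but only P2ry1 (-1.26 at both times) was still 2-fold there. Cavin2, called higher at h2 (1.34), was -0.35 in the deposited values.

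Likeness between the 9 genes was described by correlation, in which Gp9, Clec1b, Ppbp and Itga2b were at background on most arrays. Over the 23 group means, with all spots kept, the correlation of log2 ratios was highest for Gp9 with Treml1 (0.761, and 0.762 over the 57 arrays of scanner 2), then Itga2b with Gp9 (0.656 and 0.344), Ppbp with Clec1b (0.622 and 0.558) and Pf4 with Itgb3 (0.569 and 0.549). The neighbours Pf4 and Ppbp gave 0.347, and Gp1bb with Gp9, subunit genes of the same receptor, gave -0.504. These points share arrays, scanners and, for the dim genes, a signal near background. The genes most like Pf4 were Cbr2 (0.957), Cfp (0.897) and Vkorc1 (0.896), with 0.666, 0.809 and 0.682 over the arrays of scanner 2. Those most like Itgb3 were Unc93b1, Tcf4 and Dpp7 (0.803 to 0.819). Those most like Treml1 were Car9, Kri1 and Ccnf (0.941 to 0.944). For Itga2b they were Arxes2, Lhx6 and Slitrk3 (0.806 to 0.808), for Gp6 Zcchc13, Slc6a17 and Gpc2 (0.861 to 0.908), and for Gp1bb Olfr933, Fam214b and Olfr368 (0.829 to 0.875). The dim members were most like Il10, Vps37d and Zcwpw1 (Gp9, 0.916 to 0.940), St8sia4, Snrnp27 and Sugt1 (Ppbp, 0.866 to 0.884) and Mtrf1, Fech and Selenbp2 (Clec1b, 0.859 to 0.880). The other members were left out of these rankings. The highest correlation between 2 members (0.761) lay below the lowest group-mean correlation listed for these genes (0.803).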

How the data were processed

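The authors scanned 2-colour Agilent arrays, 1 per biopsy, and deposited Feature Extraction output with median pixel intensity of spot and local background (version 11.0.1.1 on 25 arrays and 10.10.1.1 on 57, per the file headers). They also deposited log10 ratios of Cy5 over Cy3 from that software, and a table of log2 normalized values whose scaling is not given in the sources used here. Its 41174 of 41267 entries matched by probe were used as an alternative. Coordinates and names come from RefSeq tables (GRCm38.p6), and 67% of probes had a symbol.

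Signals were background-corrected with normexp (offset 50) and loess-normalized within arrays with limma 3.58.1 in R 4.3.3. Of spot values, 0.704% marked as outliers were left out. Group means of the 82 arrays were fitted in 1 model with eBayes, and p-values were Benjamini-Hochberg adjusted over 30294 probes. Called means adjusted p under 0.05 and at least 2-fold. A bound ("at least N-fold") sets the mean of the brighter group against a limit for each array of the dim group. That limit was the higher of the dim signal and the lowest signal measured above background. The Cy5 signals used were loess-normalized, then scaled between arrays by quantiles of mean intensity, with outlier spots kept. A bound carries no sampling error and was left out where it exceeded the fold of the ratios. The script was tested on simulated data. The number of arrays limits the precision, and p-values treat biopsies of a mouse as separate. The correlation within mice, estimated over all probes, was 0.119, and within slides 0.269. The text names all 9 platelet genes, genes of the other platelet lists called in a comparison that called a platelet gene (up to 6 per list), marker genes and some list genes called at h2 or d4 (both chosen after their values were seen), and the 3 genes of highest correlation with each. The members and lists were chosen with earlier results of these data known. Alternatives were median centring, no background correction, the deposited values, the software ratios, no filter, blocks for scanner, slide, scan day and mouse, each scanner alone, all sham arrays, the mean over probes, no fold limit, leaving out mice and, chosen after seeing the data, keeping outlier spots.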

Additional observations from a re-analysis of the deposited data

Results flagged for a closer look

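In 13 of 124 groups of 4 or more arrays the highest or lowest array stood apart from the rest of its group, where chance gives about 1 in 20. Groups of different genes share the same arrays and are not independent, so an excess over that rate was not tested. Sham mouse M002 was low at h2 for Pf4 (-1.59) and Itgb3 (-1.14) and at d4 for Itgb3 (-0.46). Mouse M013 at 3 Gy on d4 stood apart for Gp9 (-0.48), Gp6 (0.36) and Treml1 (-0.77). At 20 Gy, M021 was low for Pf4 at h2 (0.18) and M024 for Gp9 at d4 (-0.37). The others were Itga2b in M010 at 1 Gy on d4 (-0.52), Gp6 in M009 at 1 Gy on d28 (0.02) and in M016 at 6 Gy at h2 (0.38), Treml1 in M011 at 3 Gy at h2 (-1.23) and Clec1b in M006 at 1 Gy on d28 (1.39).

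The 20 Gy effect on Pf4 differed between d7 and h2 by -2.46 in the direct test, under loess.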

How the results depend on the processing

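The calls at 20 Gy were few and moved with the scaling. At h2 the count of members called went from 0 to 2 with median centring, 2 with the scanner software ratios and 1 with no fold limit, at d4 from 0 to 1, 1 and 2 under the same settings, and at d7 from 1 to 0 with median centring, all probes tested, scanner 1 alone, slide as a block or scan day as a block, and to 2 with the software ratios. Leaving out mice gave 0 to 1 calls at d7 and 0 to 0 in the other comparisons of groups. Over the 15 sublethal comparisons the count went from 0 to 1 in the deposited values (Pf4, 6 Gy on d4), 1 on scanner 1 alone (Pf4, 3 Gy on d4, 1 irradiated array), 2 with scan day as a block and 3 with no fold limit. For 20 against 6 Gy it went from 0 to 1 with median centring, 1 without background correction, 3 in the deposited values and 5 in the software ratios, and for sham over time from 0 to 1 without background correction, 4 in the deposited values, 2 in the software ratios, 1 with scan day as a block, 1 on scanner 1 alone and 2 on scanner 2 alone. The change of the effect over time went from 1 to 0 with median centring, the deposited values, all probes tested, scanner 1 alone, scanner 2 alone, slide or scan day as a block, and the mean over probes, and leaving out mice gave 0 to 1. A count on 1 scanner covers only the comparisons with arrays there, and scanner 2 holds no array at 20 Gy. With median centring a called value stood against another sign for Pf4 at h2 (-2.43), its change from h2 to d7 (0.16) and Itgb3 at h2 (-1.53). Other values named in the text also turned sign, without a call. Among them were Pf4 at h2 (-0.84 in the deposited values, -0.03 without sham mouse M002 and on scanner 1 alone) and Pf4 at d4 (-1.52 with median centring, -0.33 in the deposited values). Itgb3 at h2 (-0.12 without M002 and on scanner 1 alone) and Gp1bb at d4 (0.07 in the deposited values) were others. Itgb3 at d4 and d7, near 0 under loess, ran from -1.40 to 0.40 and from -0.28 to 0.40 over the settings, and from -0.27 to 0.05 and from -0.10 to 0.10 with mice left out. The cause was not tested.

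With mouse as a replicate block Pf4 at d7 was -1.95 (adjusted p = 0.0436), and this changed no count of calls. With scan day as a block it was -0.78 (adjusted p = 1), with slide as a block -1.86 (adjusted p = 0.057), and with all probes tested -1.92 (adjusted p = 0.0634). Leaving out mice moved it from -2.42 to -1.14. Signal over background limits Ppbp, Gp9 and Clec1b, which were at background on most arrays.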
